A study of Mus musculus with 8 samples.

Results

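The carbonic anhydrase genes of the mouse retina were described here in *dmbo* and wild-type (WT) animals. The 10 genes *Car2*, *Car3*, *Car4*, *Car8*, *Car9*, *Car10*, *Car11*, *Car12*, *Car13* and *Car14* were chosen by gene symbol, among 21652 genes with a single symbol on the array. All 10 were in the data, each read by 1 probe set of 26 to 36 probes, so no choice between probe sets was needed. The group was selected on earlier results of the same arrays, in which the fall of *Car3* was already known. The values of *Car3* are therefore a description of these 8 arrays, and its call says only on which side of the threshold it lies.

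Whole retinas at postnatal day 15 were compared between 4 homozygous *dmbo* mice and 4 homozygous WT mice, all labelled C57BL/6J. The *dmbo* allele carries a premature stop in exon 1 of *Hmx1*, a homeobox gene of eye and ear development, and the mutant eye is small. The *dmbo* line came from another supplier than the WT mice and was backcrossed to C57BL/6J to remove the *Rd1* mutation, so origin and genotype cannot be told apart. The signal of *Hmx1* itself was 8.25 ± 0.13 in *dmbo* and 8.25 ± 0.04 in WT retinas (log2, mean ± SD, n = 4 each), and such an allele can still be transcribed, so this signal does not check the genotype.

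Carbonic anhydrases are zinc enzymes that turn carbon dioxide and water into bicarbonate and a proton, and back. Some work in the cytosol, some are anchored at the cell surface with the active site outside, and a few related proteins have lost the residues that hold the zinc and do not catalyse the reaction. In the retina the enzymes are known from Müller glia, the radial glia that spans the tissue, and from the pigment epithelium behind it. There they take part in clearing the carbon dioxide and acid that photoreceptors produce and in moving water and bicarbonate out of the retina.

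Each gene is given as a log2 signal, in which a difference of 1 is a doubling. The threshold was a limma p, adjusted over all 28350 probe sets, of under 0.1 together with a change of at least 1.2-fold. Of the 10 genes, 1 rose in *dmbo* retinas (*Car14*), 1 fell (*Car3*) and 8 did not pass. Over all genes 0.314% rose and 0.319% fell, and the 4 *dmbo* and 4 WT values did not overlap for 5.83% of genes. The median log2 fold change of the 10 genes was -0.03, against 0.00 over all genes, and 7 of the 10 had a negative value. Since the genes were picked with results known, these counts describe them and are not set against chance.

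The arrays themselves were not equal in tissue content. The retinal cell lists were high in every array, with a mean log2 signal of 12.41 to 12.57 for the 5 rod genes and 10.95 to 11.09 for the 5 bipolar genes. The 18 lens genes had a mean signal of 8.20 to 12.30 in the *dmbo* and 7.43 to 8.76 in the WT retinas, and the 12 skeletal muscle genes 7.77 to 7.998 in the *dmbo* and 7.79 to 8.92 in the WT retinas. *Xist*, the RNA of the inactive X chromosome, was above 10 in all 4 *dmbo* retinas and in WT replicate 2, and *dmbo* replicates 1 and 2 held transcripts of the Y chromosome as well, so that RNA of both sexes was on the same array. Values with *Xist* as a covariate and without those 2 retinas are given with *Car3* and *Car14* below. Since *Xist* was high in every *dmbo* retina and in WT replicate 2 alone, sex and genotype were largely confounded. The fits with the *Xist* covariate rest mostly on that WT retina. In whole tissue, fewer cells of a type and less RNA per cell cannot be told apart.

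Sequences of CAAGTG sites are shown because they bear on the study's question. HMX1 is known to bind CAAGTG, a motif that overlaps TNAAGTG, the sequence of NKX2-5. CAAGTG was searched on both strands in 250 bases before and 50 bases after each RefSeq start (GRCm38.p6), where 13.6% of 32851 promoters hold it. The promoter table covered 8 promoters of 6 of the genes, and *Car2*, *Car3*, *Car8* and *Car13* were not looked at. The motif was in *Car10*, 47 bases before the second of its starts, and in *Car11*, where a single site lies 56 and 219 bases before the 2 starts. It was in no promoter of *Car4*, *Car9*, *Car12* or *Car14*. The promoter of *Car14*, the gene that rose, held TAATCC, the core bound by photoreceptor factors of the OTX family, 61 bases before its start. That motif does not bear on the study's question, was chosen after the sequence had been seen and is in 7.06% of promoters. A part of such factors in the rise of *Car14* was not tested. The sites are printed 5′ to 3′ on the strand of the gene, with the motif in capitals.
Car10, chr11:93099231-93099260, plus strand: cctcctcctctcCAAGTGggaaggcgtcgg
Car11, chr7:45699736-45699765, plus strand: aaccagtgggagCAAGTGggtggggaagag
Car14, chr3:95904729-95904758, minus strand: atcctgcatgccTAATCCgctatttaagga
A match describes these letters alone. The study's own model searched further past the start and asked for a pair of motifs at a set distance. Single matches and absences in the shorter window do not test that model. Both genes with a CAAGTG match, *Car10* and *Car11*, did not pass the test in the *dmbo* retina, as described below.

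The cytosolic enzymes were *Car2*, *Car3* and *Car13*, which lie together with *Car1* on chromosome 3. *Car3* encodes an enzyme of low carbon dioxide activity that is abundant in skeletal muscle, fat and liver, and is carbonylated and glutathionylated under oxidative stress. It is at 14863509 to 14872532 on the plus strand of chromosome 3, in the positions of the deposited annotation, which names no build. Its log2 signal was 7.82, 7.57, 7.50 and 7.96 in replicates 1 to 4 of *dmbo*, against 8.37, 8.28, 8.59 and 8.97 in those of WT. Every *dmbo* retina was below every WT retina, with a gap of 0.32 between the groups. The means were 7.71 ± 0.22 and 8.55 ± 0.31 (SD, n = 4 each), a log2 fold change of -0.84 (SE 0.15, 95% confidence interval -1.18 to -0.50), or 1.79-fold more signal in the WT retina. The adjusted p of *Car3* from limma was 0.0637. Its mean over the 8 retinas, 8.13, was below the median of 8.22 over all probe sets. The percentile 95 of the olfactory receptor probe sets, a rough background explained with *Car13* below, was 7.52. The *dmbo* values of 7.50 and 7.57 were near that level, so the size of the fold change is uncertain.

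The call of *Car3* depended on single retinas. Without *dmbo* replicate 1, 2 or 3 the adjusted p of limma was 0.147, 0.19 and 0.135, and without WT replicate 1 or 3 it was 0.123 and 0.206, while the log2 fold change stayed between -0.93 and -0.70 whichever retina was left out. With *Xist* as a covariate the log2 fold change was -0.60 (adjusted p = 0.911, limma), and without *dmbo* replicates 1 and 2, which held RNA of both sexes, it was -0.82 (adjusted p = 0.494, limma). With the crystallin genes of the lens as a covariate it was -1.27 (adjusted p = 0.018, limma), a larger difference than without it. Among retinas with *Xist* and no Y signal, *Car3* was 7.50 and 7.96 in *dmbo* replicates 3 and 4 and 8.28 in WT replicate 2.

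Skeletal muscle genes had lower values beside *Car3*, without passing the test. All 12 genes of that list (among them the actin *Acta1*, the creatine kinase *Ckm* and the calcium pump *Atp2a1*) had a negative log2 fold change, from -0.95 to -0.18 with a median of -0.52, and none passed (lowest adjusted p = 0.47, limma). Their mean signal was 7.81, 7.77, 7.83 and 7.998 in replicates 1 to 4 of *dmbo*, against 8.11, 7.79, 8.62 and 8.92 in those of WT. In the WT retinas the muscle mean and *Car3* had the same order, lowest in replicate 2, then 1, 3 and 4. In the *dmbo* retinas the orders differed, with *Car3* lowest in replicate 3, then 2, 1 and 4, and the muscle mean lowest in replicate 2, then 1, 3 and 4. WT replicate 2 had a muscle mean inside the *dmbo* range, and its *Car3* signal of 8.28 was above the highest *dmbo* value of 7.96. With the muscle mean as a covariate the log2 fold change of *Car3* was -0.53 (adjusted p = 0.23, limma), and without WT replicates 3 and 4, the retinas highest in muscle genes, it was -0.61 (adjusted p = 0.283, limma). Both alternatives were chosen after the data had been seen.

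**Figure D1:**
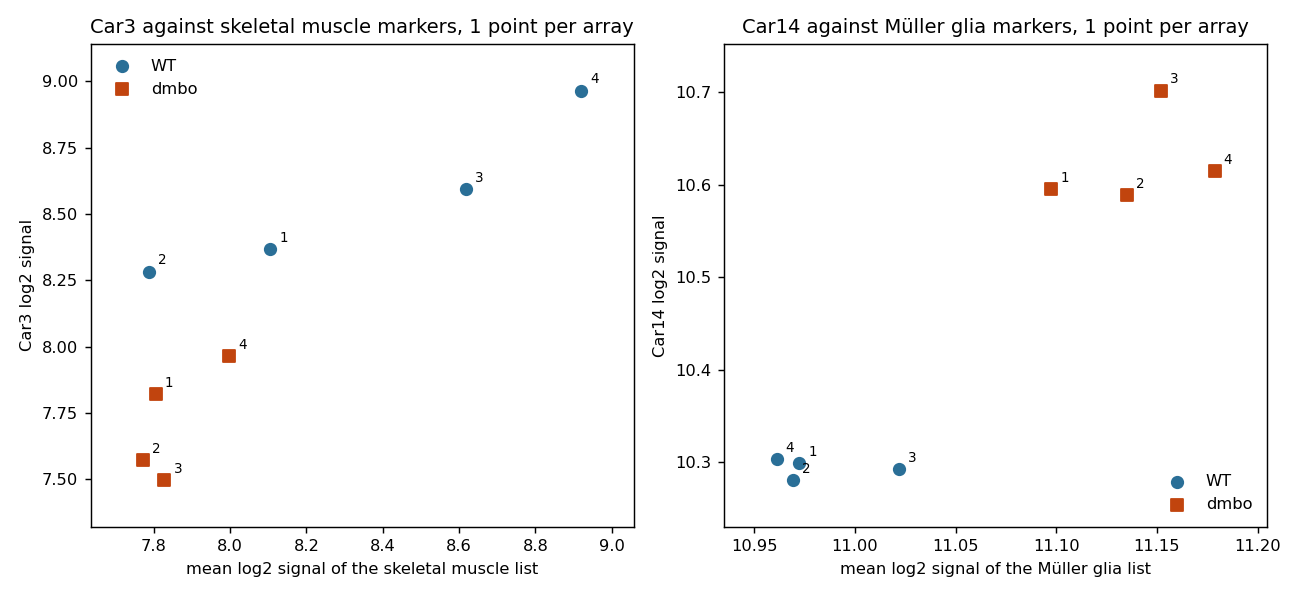
Each point is 1 array, WT as circles and dmbo as squares, with the replicate number beside it. Left: log2 signal of Car3 against the mean log2 signal of the skeletal muscle list, where WT replicate 2 lies at a muscle mean of 7.79 among the dmbo arrays and at a Car3 signal of 8.28 above them. Right: log2 signal of Car14 against the mean of the Müller glia list, where both the 4 dmbo values and the 4 dmbo means lie above all WT arrays.

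The mean of the connective tissue genes of sclera and cornea had the same order as *Car3* within the WT and within the *dmbo* retinas. The lens mean had that order within the *dmbo* retinas but not within the WT retinas. Of the 7 connective tissue genes 0 passed, 6 had a negative value and the median was -0.27, with a mean signal of 7.51 to 7.86 in *dmbo* and 7.52 to 8.57 in WT retinas. The 7 adipocyte genes, whose tissue is rich in *Car3*, had a median log2 fold change of 0.02, and their mean signal of 7.86 to 8.05 in *dmbo* overlapped that of 7.86 to 8.02 in WT retinas. The 6 measured erythrocyte genes had a median of 0.01 and 0 of them passed. The connective tissue mean was 8.47 and 8.57 in WT replicates 3 and 4, against 7.69 and 7.52 in WT replicates 1 and 2. The fit without WT replicates 3 and 4 thus left out the retinas highest in both muscle and connective tissue genes. It cannot tell these tissues apart. The part of connective tissue RNA in the *Car3* difference was otherwise not tested, and that of muscle and lens RNA only by the covariates and the retinas left out.

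*Car2* encodes the fast cytosolic enzyme of red cells, kidney and Müller glia, and its deficiency in people causes osteopetrosis with renal tubular acidosis. The signal of *Car2* was 12.00, 12.08, 12.10 and 11.98 in replicates 1 to 4 of *dmbo*, against 12.18, 12.04, 12.10 and 12.13 in those of WT, and the groups overlapped. Its log2 fold change was -0.07 (SE 0.05, limma adjusted p = 0.871), with a 95% confidence interval of -0.18 to 0.04. The interval corresponds to 0.884 to 1.03 times the WT signal. *Car2* starts 14173 bases beyond the end of *Car3* on the same strand.

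*Car13*, another cytosolic enzyme, had a signal of 6.47, 6.43, 6.45 and 6.39 in replicates 1 to 4 of *dmbo*, against 6.27, 6.30, 6.42 and 6.97 in those of WT. WT replicate 4 was the highest of all 8, and the other WT retinas were in or below the *dmbo* range. The log2 fold change was -0.05 (SE 0.13, limma adjusted p = 0.986), with a 95% confidence interval of -0.36 to 0.25, and it was 0.10 without WT replicate 4. The signal of *Car13* was low. Its mean exceeded that of 68.5% of the 1145 olfactory receptor probe sets, which serve here as a rough background because the retina is not known for these receptors. Probe sets differ in brightness, so this is a reference and not a detection call.

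Around *Car3*, 14 other probe sets with 11 gene symbols start within 1 Mb, and 0 of them passed. Their log2 fold changes ran from -0.07 to 0.09, with a lowest adjusted p of 0.816 from limma. *Car1*, the red cell enzyme of the same cluster, had a log2 fold change of 0.00. The fall of *Car3* was thus not accompanied by a call in a measured neighbour. Over all genes only 0.314% rose and 0.319% fell, so 0 calls among 14 probe sets says nothing particular about this region.

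**Figure D2:**
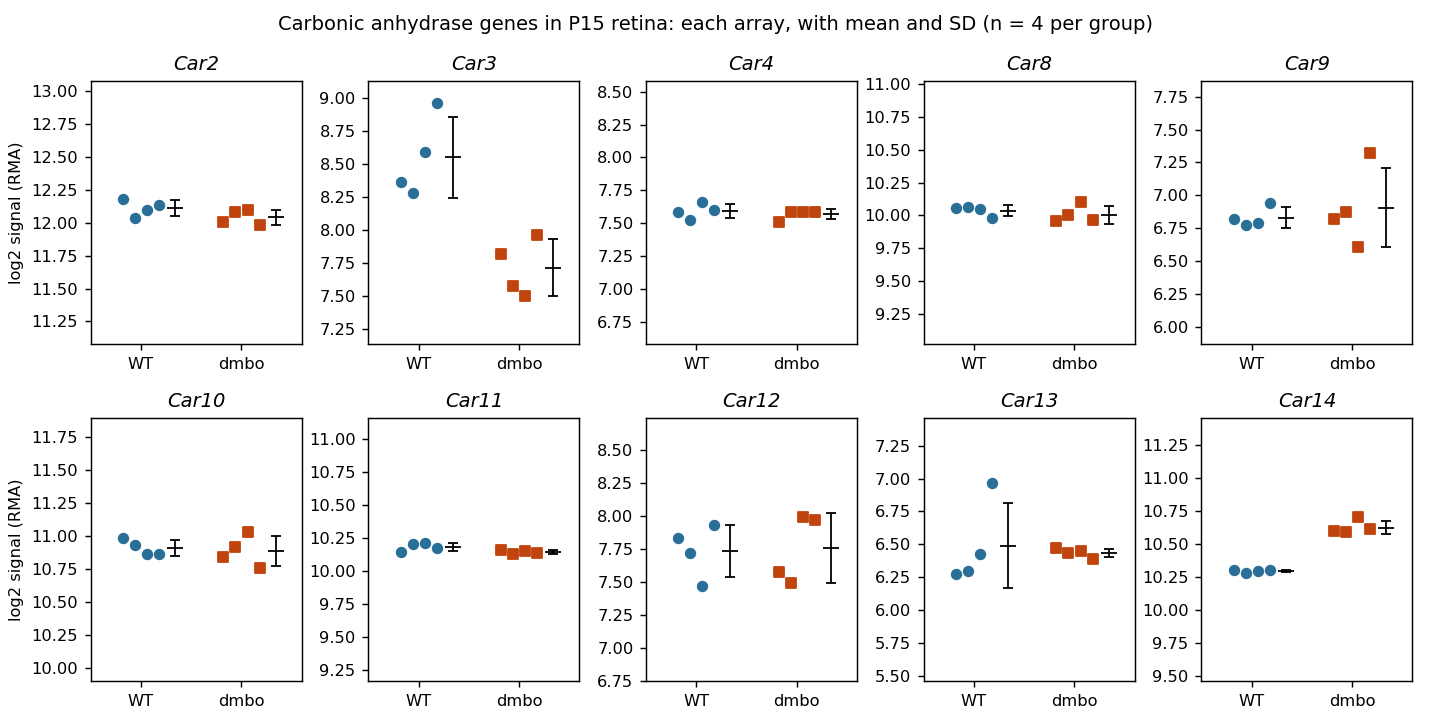
Log2 signal of the 10 carbonic anhydrase genes, 1 panel per gene, all panels spanning the same range of log2 units. Circles are the 4 WT and squares the 4 dmbo retinas, in the order of their replicate numbers, with the mean and SD beside them. The groups are apart for Car3, with dmbo lower, and for Car14, with dmbo higher, and overlap for the other 8.

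The membrane-bound enzymes were *Car4*, *Car9*, *Car12* and *Car14*, whose active sites face the outside of the cell. *Car14* is the enzyme known from the surface of Müller glia and pigment epithelium in the mouse retina. It is at 95701691 to 95708562 on the minus strand of chromosome 3 in the positions of the deposited annotation. Its signal was 10.60, 10.59, 10.70 and 10.61 in replicates 1 to 4 of *dmbo*, against 10.30, 10.28, 10.29 and 10.30 in those of WT. Every *dmbo* retina was above every WT retina, and the gap of 0.29 was wider than the whole WT range of 0.02.

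The means of *Car14* were 10.63 ± 0.05 in *dmbo* and 10.29 ± 0.01 in WT retinas (SD, n = 4 each). The log2 fold change was 0.33 (SE 0.04, 95% confidence interval 0.24 to 0.43), a 1.26-fold rise with an adjusted p of 0.0104 from limma. The call was kept in 8 of 8 fits that left out a retina, with a log2 fold change of 0.31 to 0.34 and an adjusted p of 0.0199 to 0.0589. The rise was 0.38 with the crystallin genes as a covariate (adjusted p = 0.0344, limma) and 0.34 with the muscle mean (adjusted p = 0.0953, limma). With *Xist* as a covariate it was 0.33 at an adjusted p of 0.349 from limma, and without *dmbo* replicates 1 and 2 it was 0.36 at 0.131. Without WT replicates 3 and 4 it was 0.34 (adjusted p = 0.165, limma). Among retinas with *Xist* and no Y signal, *Car14* was 10.70 and 10.61 in *dmbo* replicates 3 and 4 and 10.28 in WT replicate 2.

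Müller glia genes stood higher in *dmbo* retinas as a list, beside *Car14*. Of its 7 genes 2 rose, 0 fell and 6 had a positive value, with a median log2 fold change of 0.23. The mean signal of the list was 11.10 to 11.18 in *dmbo* and 10.96 to 11.02 in WT retinas, so that the groups did not overlap. The mean of the 3 measured amacrine genes did not overlap either, in the other direction, at 10.43 to 10.61 in *dmbo* and 10.72 to 10.80 in WT retinas. Within the groups the orders of *Car14* and the Müller glia mean differed. WT replicate 4 was highest for *Car14*, within its narrow WT range, and lowest for the Müller glia mean. In *dmbo* the order was 2, 1, 4 and 3 for *Car14* and 1, 2, 3 and 4 for the Müller glia mean. *Aqp4*, the water channel of the glial endfeet, rose by 0.30 (SE 0.06, adjusted p = 0.0727 from limma). *Kcnj10*, the potassium channel Kir4.1, rose by 0.29 (SE 0.05, adjusted p = 0.051 from limma). *Slc1a3*, the glutamate transporter GLAST, had an adjusted p of 0.0545 at a log2 fold change of 0.26, just under the 1.2-fold minimum.

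The remaining Müller glia genes did not pass. *Glul*, the glutamine synthetase, differed by 0.08 (adjusted p = 0.827, limma), *Dkk3* 0.06 and *Vim*, an intermediate filament, 0.23 (adjusted p = 0.762, limma). *Rlbp1*, the retinaldehyde binding protein that pigment epithelium also makes, had -0.11 (adjusted p = 0.61, limma). The 7 measured pigment epithelium genes had a median of -0.14 and 0 passed, with a mean signal of 8.51 to 9.33 in *dmbo* and 8.66 to 9.30 in WT retinas. *Aqp4* kept its call in 2 and *Kcnj10* in 1 of the 8 fits that left out a retina, with an adjusted p of up to 0.213 and 0.179, and both missed the threshold with median centring (adjusted p = 0.139 each, limma). Their limma adjusted p was 0.888 and 0.713 with *Xist* as a covariate, 0.312 and 0.297 with the muscle mean, 0.248 and 0.565 without *dmbo* replicates 1 and 2, and 0.386 and 0.357 without WT replicates 3 and 4. In these 4 fits the log2 fold change was 0.25 to 0.35 for *Aqp4* and 0.25 to 0.28 for *Kcnj10*. For *Slc1a3* the limma adjusted p was 0.143 with median centring, 0.657 with *Xist* as a covariate and 0.235 with the muscle mean. Without *dmbo* replicates 1 and 2 it was 0.508, and without WT replicates 3 and 4 it was 0.26. With each retina left out it ranged from 0.0531 to 0.192. The part of Müller glia number in the rise of *Car14* was not tested.

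*Car4*, held at the membrane by a lipid anchor, is known from the capillaries behind the retina, and its mutations in people were linked to a form of retinitis pigmentosa. The signal of *Car4* was 7.51, 7.59, 7.59 and 7.59 in replicates 1 to 4 of *dmbo*, against 7.59, 7.52, 7.66 and 7.60 in those of WT. The log2 fold change was -0.02 (SE 0.05, limma adjusted p = 0.982), with a 95% confidence interval of -0.12 to 0.08, and the *dmbo* values lay inside the WT range but for 1 retina. The mean of *Car4* was 7.58 and exceeded 95.55% of the olfactory receptor probe sets, so its signal was low. The 6 endothelial genes had a median of -0.08 and 0 passed.

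*Car9* encodes an enzyme that hypoxia induces. Its signal was 6.82, 6.87, 6.61 and 7.32 in replicates 1 to 4 of *dmbo*, against 6.82, 6.77, 6.79 and 6.94 in those of WT. *dmbo* replicates 3 and 4 were the lowest and the highest of the 8 retinas. The log2 fold change was 0.08 (SE 0.13, limma adjusted p = 0.982), with a 95% confidence interval of -0.21 to 0.36. It was -0.06 without *dmbo* replicate 4 and -0.31 with the crystallin genes as a covariate. The mean of *Car9* exceeded 80.9% of the olfactory receptor probe sets.

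*Car12* encodes an enzyme known from the ciliary epithelium, which makes the aqueous humour. The signal of *Car12* was 7.58, 7.49, 7.996 and 7.97 in replicates 1 to 4 of *dmbo*, against 7.83, 7.72, 7.47 and 7.93 in those of WT. The log2 fold change was 0.02 (SE 0.14, limma adjusted p = 0.996), with a 95% confidence interval of -0.28 to 0.33. The *dmbo* retinas fell into a low and a high pair, and without the low pair, replicates 1 and 2 with RNA of both sexes, the log2 fold change was 0.25 (95% confidence interval -0.03 to 0.53, limma adjusted p = 0.9999). Over all 8 retinas the groups overlapped, and the interval leaves room for a change of the 1.2-fold size in either direction. Within the WT retinas *Car12* had the order of the pigment epithelium mean, lowest in replicate 3, then 2, 1 and 4. Within the *dmbo* retinas replicates 2 and 1 were lowest in both, while replicates 3 and 4 changed places. The pigment epithelium mean was 8.87, 8.51, 9.04 and 9.33 in *dmbo* replicates 1 to 4. The part of pigment epithelium RNA in the *Car12* values was not tested.

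The related proteins without enzyme activity were *Car8*, *Car10* and *Car11*. *Car8* is best known from cerebellar Purkinje cells, where it binds the receptor for inositol trisphosphate and its loss causes ataxia. The signal of *Car8* was 9.96, 10.002, 10.10 and 9.96 in replicates 1 to 4 of *dmbo*, against 10.06, 10.06, 10.05 and 9.98 in those of WT. Its log2 fold change was -0.03 (SE 0.05, limma adjusted p = 0.981), with a 95% confidence interval of -0.14 to 0.08. The groups overlapped, with *dmbo* replicate 3 the highest retina.

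*Car10* and *Car11* encode secreted proteins of neurons, and CAR10 is known to bind neurexins. The signal of *Car10* was 10.84, 10.92, 11.03 and 10.76 in replicates 1 to 4 of *dmbo*, against 10.99, 10.93, 10.86 and 10.86 in those of WT, a log2 fold change of -0.03 (SE 0.06, 95% confidence interval -0.17 to 0.12). *dmbo* replicates 3 and 4 held the highest and the lowest value of *Car10*. The signal of *Car11* was 10.16, 10.13, 10.16 and 10.14 in replicates 1 to 4 of *dmbo*, against 10.15, 10.21, 10.21 and 10.18 in those of WT, a log2 fold change of -0.04 (SE 0.04, 95% confidence interval -0.13 to 0.05). WT replicate 1 lay within the *dmbo* range and the other WT retinas above it. The adjusted p of limma was 0.986 for *Car10* and 0.937 for *Car11*, the genes with the CAAGTG sites shown above.

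Over the 8 genes that did not pass, log2 fold changes ran from -0.07 to 0.08, with adjusted p from 0.871 to 0.996 in limma and a lowest unadjusted p of 0.188. The 95% confidence intervals of *Car2*, *Car4*, *Car8*, *Car10* and *Car11* lay inside the 1.2-fold limits in both directions. Those of *Car9*, *Car12* and *Car13* reached beyond a limit on at least 1 side, so that a change of that size cannot be told from none in these genes. For *Car4*, whose signal was low, the narrow interval describes the array signal and does not exclude a change of the transcript.

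**Figure D3:**
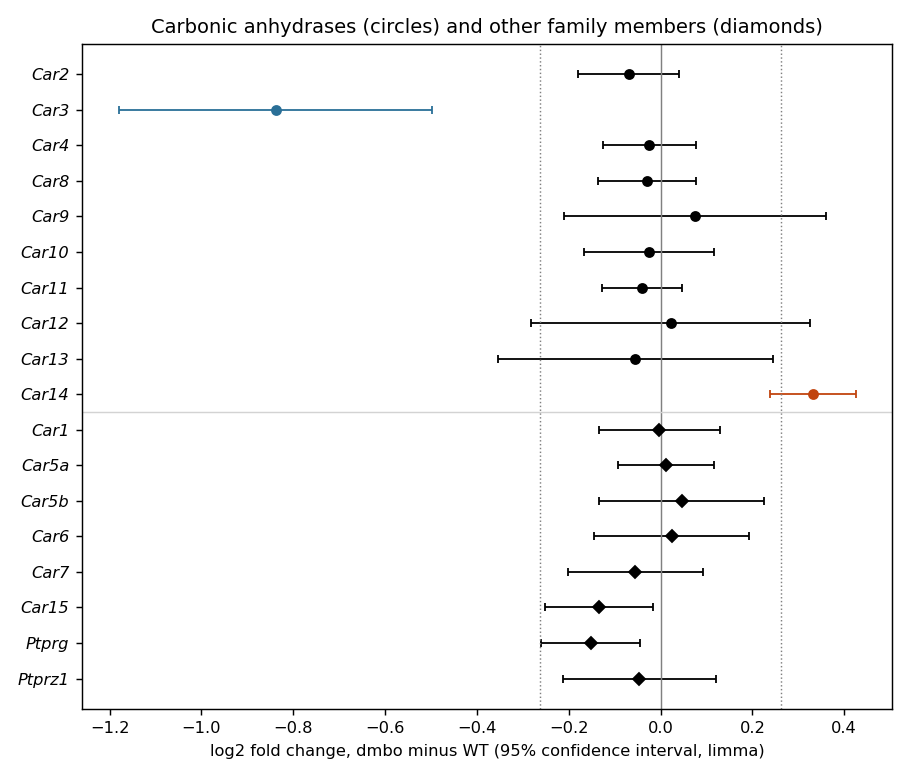
Log2 fold change, dmbo minus WT, with its 95% confidence interval from limma, for the 10 carbonic anhydrase genes (circles) and 8 other genes of the family (diamonds). The dotted lines mark a 1.2-fold change. Car3 at -0.84 and Car14 at 0.33 passed the threshold, and the other 16 did not.

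The rest of the family was read with 8 further genes, 6 anhydrases and the receptor phosphatases *Ptprg* and *Ptprz1*, which carry an inactive anhydrase domain outside the cell. None of these 8 passed, and their median log2 fold change was -0.02. *Ptprg* had the lowest value, -0.15 (SE 0.05, adjusted p = 0.37 from limma), and its groups did not overlap. *Car15*, a membrane-anchored enzyme, had -0.13 (adjusted p = 0.564, limma), and *Ptprz1* -0.05. *Car5a* and *Car5b*, the mitochondrial enzymes, had 0.01 and 0.05, *Car6*, the secreted enzyme of saliva, 0.02, and *Car7*, a cytosolic enzyme of neurons, -0.05.

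Bicarbonate, protons, lactate and water cross membranes through other proteins, and 33 genes of such transporters were measured. Of these 1 fell (*Slc4a3*), 1 rose (*Aqp4*) and the others did not pass, with 20 negative and 13 positive values and a median log2 fold change of -0.01. *Slc4a3* encodes the anion exchanger AE3, which trades chloride for bicarbonate in neurons, muscle and the retina. Its signal was 10.21, 10.15, 10.15 and 10.12 in replicates 1 to 4 of *dmbo*, against 10.48, 10.48, 10.43 and 10.39 in those of WT, without overlap. The means were 10.16 ± 0.04 and 10.45 ± 0.04 (SD, n = 4 each), a log2 fold change of -0.29 (SE 0.04, adjusted p = 0.0232 from limma), or 1.22-fold more in the WT retina.

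The call of *Slc4a3* ended without WT replicate 2 (adjusted p = 0.102, limma) and was kept in the other 7 fits that left out a retina. It also ended with *Xist* as a covariate (log2 fold change -0.30, adjusted p = 0.447, limma), without *dmbo* replicates 1 and 2 (-0.31, adjusted p = 0.247) and without WT replicates 3 and 4 (-0.32, adjusted p = 0.162), where the difference was no smaller than over all 8 retinas. The mean of its 2 probe sets had a log2 fold change of -0.26, just short of 1.2-fold. The signal of *Aqp4* was 9.90, 10.05, 10.15 and 9.9955 in replicates 1 to 4 of *dmbo*, against 9.70, 9.74, 9.76 and 9.68 in those of WT, again without overlap. Of those reported here, the transporters with the next lowest p were *Slc4a5*, a sodium bicarbonate cotransporter (log2 fold change -0.16, adjusted p = 0.4235, limma), *Slc26a6*, an anion exchanger (-0.12, adjusted p = 0.54, limma), and *Slc4a7*, another sodium bicarbonate cotransporter (-0.11, adjusted p = 0.587, limma). The groups of *Slc26a6* and *Slc4a7* did not overlap either, with gaps of 0.005 and 0.02, as was so for 5.83% of all genes. *Slc4a4*, the bicarbonate cotransporter of glia and kidney, had 0.15 (adjusted p = 0.813, limma), and *Bsg*, the chaperone of the lactate transporters, 0.00.

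**Figure D4:**
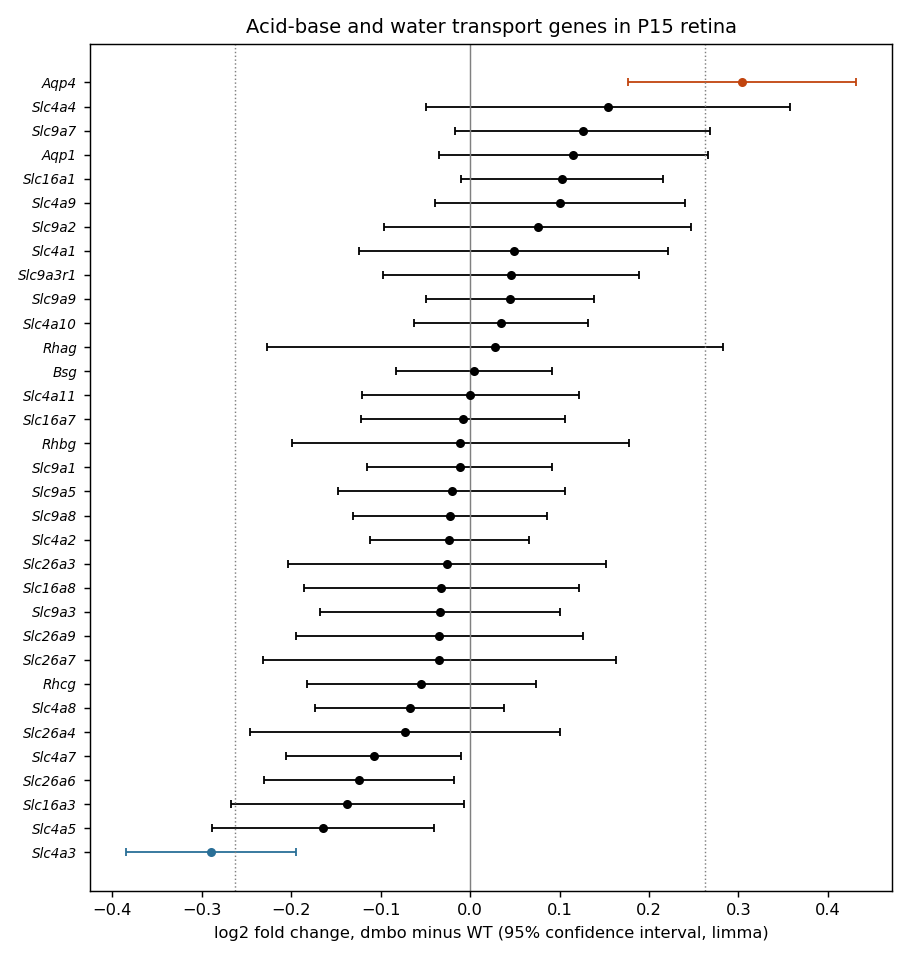
Log2 fold change, dmbo minus WT, with its 95% confidence interval from limma, for the 33 acid-base and water transport genes, ordered by value. The dotted lines mark a 1.2-fold change. Aqp4 at 0.30 and Slc4a3 at -0.29 passed the threshold.

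Among 11473 genes with a mean signal above the median of all probe sets, those most like *Car3* over the 8 retinas were *Arhgap31* (Pearson r = 0.96), *Gm2451* (0.95), *Atp5sl* (0.94), *Dak* (0.94) and *Sepx1* (0.93). Of these 5 only *Arhgap31* passed the threshold (log2 fold change -0.35, limma adjusted p = 0.0268), and the others had log2 fold changes of -0.03 (*Gm2451*), -0.09 (*Atp5sl*), -0.12 (*Dak*) and -0.23 (*Sepx1*). Over the deviations of the same 8 retinas from their group means the closest were *Aqp12* (r = 0.98), *Tgfbr2* (0.98), *Snx18* (0.97), *Col17a1* (0.97) and *Olfr239* (0.96). These are the highest of many correlations over 8 arrays that share their tissue content, and are given as a description.

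**Figure D5:**
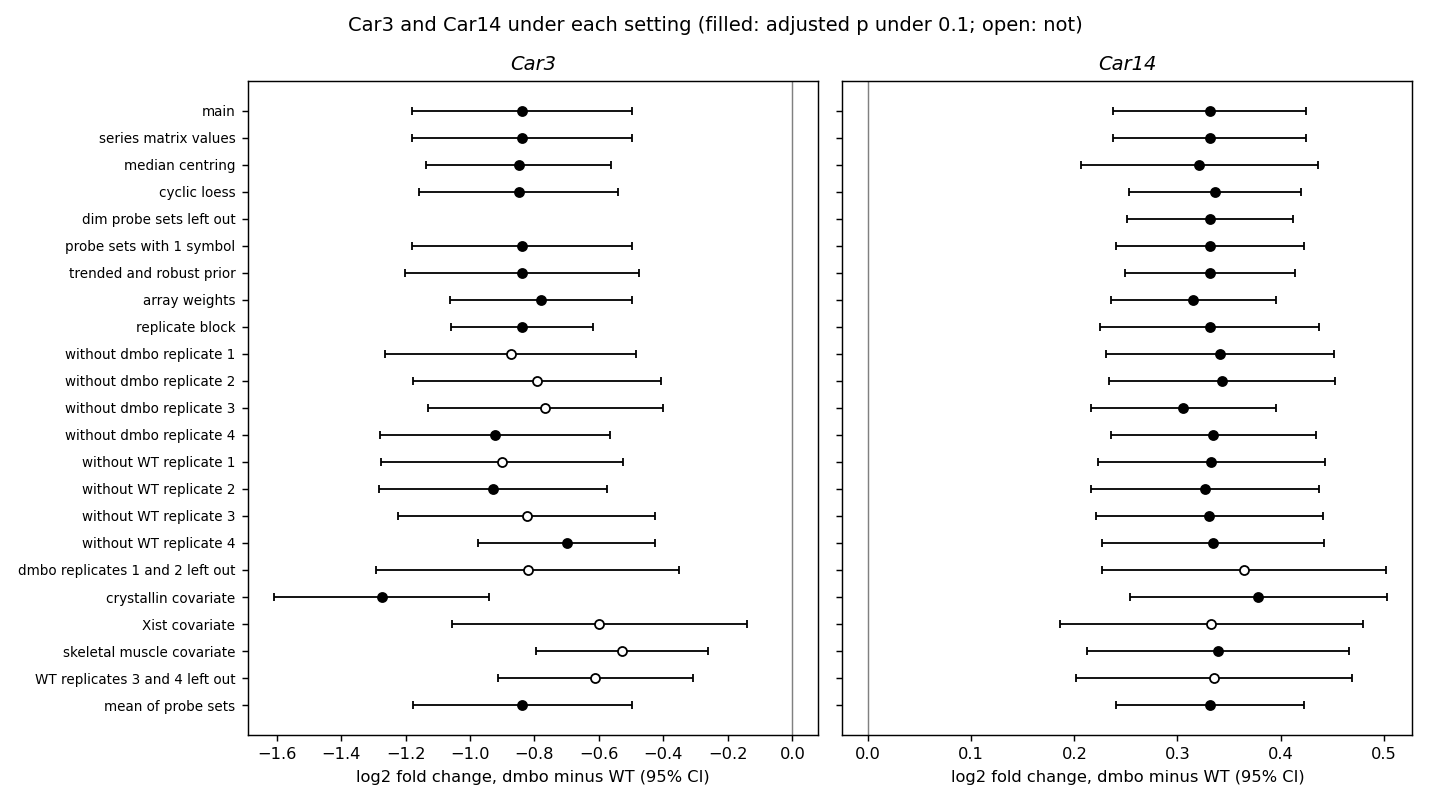
Log2 fold change of Car3 (left) and Car14 (right), dmbo minus WT, with its 95% confidence interval under each way of processing, filled where the adjusted p of limma was under 0.1 and open where it was not. Car3 lies between -1.27 and -0.53 and has no value where dim probe sets were left out, and Car14 lies between 0.31 and 0.38.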

How the data were processed

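RNA of 8 whole retinas, each from 1 mouse by the study's account, was hybridised to Affymetrix Mouse Gene 1.0 ST arrays. The authors deposited log2 signals made with RMA (background correction, quantile normalization and a summary over probes). Neither the RMA version nor the build of the deposited positions was given in the sources used here. The array columns were identical for 8 of 8 arrays in both deposited tables. The fold changes and p-values deposited by the authors were not used. All 28350 probe sets were fitted in R 4.3.3 (limma 3.58.1) for *dmbo* minus WT, with Benjamini-Hochberg adjustment. The threshold followed the study's methods. On simulated arrays 93 of 100 probe sets changed 1.5-fold and 100 of 100 changed 2-fold were recovered, with 15 false calls. The simulated noise was independent between probe sets, without the shared tissue content and sex of the real arrays. Changes near 1.2-fold were not simulated, so these rates do not apply to the smaller changes called here. With 4 arrays a group their number limits the precision, and an exact permutation test could not give a p below 0.0286. Array medians were 8.19 to 8.28.

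The genes and lists were chosen with earlier results of these data known. Named were the 10 genes, the rest of the family, transporters past the threshold with the next 3 by p, and the 5 genes most like *Car3* by each measure. *Slc4a4*, *Bsg*, *Hmx1* and the marker genes were named for their roles after values were seen. The lists of retinal cells gave a median log2 fold change of -0.03 for rod, -0.12 for cone, 0.01 for bipolar, -0.16 for amacrine and 0.00 for ganglion cell genes, with 1 call in all (*Slc6a9*, lower). The 18 lens genes had a median of 2.44 and the 5 oligodendrocyte genes 0.07, with 0 calls. A few genes of the lists are not reported here. Alternatives were other normalizations, filters, variance priors, array weights, a replicate block, covariates and arrays left out.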

Additional observations from a re-analysis of the deposited data

Results flagged for a closer look

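Of 40 groups of 4 retinas looked at, 3 held a retina far from the others, and chance gives about 1 in 20. For *Car4*, *dmbo* replicate 1 had a log2 signal of 7.51, and the other *dmbo* retinas 7.59. For *Car8*, WT replicate 4 had 9.98, and the other WT retinas 10.05 to 10.06. For *Car15*, *dmbo* replicate 2 had 8.09, and the other *dmbo* retinas 7.96 to 7.98.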

How the results depend on the processing

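*Car3* was lower and *Car14* higher in *dmbo* retinas under every alternative that gave a value. *Car3* missed the threshold without *dmbo* replicates 1 and 2 (-0.82), with *Xist* (-0.60) or the muscle mean (-0.53) as a covariate and without WT replicates 3 and 4 (-0.61). It reached -1.27 with the crystallins as a covariate, and ranged from -0.93 to -0.70 when each retina was left out. Only 3 of those 8 fits kept the call of *Car3*. *Car14* missed the threshold without *dmbo* replicates 1 and 2 (0.36), with *Xist* (0.33) and without WT replicates 3 and 4 (0.34), reached 0.38 with the crystallins, and ranged from 0.31 to 0.34 when each retina was left out. The count of 2 genes past the threshold was 1 without dim probe sets, which leaves 5 of the 10 genes, 1 with the muscle covariate, 0 with *Xist*, 0 without *dmbo* replicates 1 and 2, 0 without WT replicates 3 and 4 and 0 at an adjusted p under 0.01, and 1 to 2 when each retina was left out. Fits with fewer retinas have fewer degrees of freedom, and otherwise the cause was not tested.

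For the other 8 genes 0 of 172 values passed, and 19 had the opposite sign. With *Xist* these were *Car4* 0.012, *Car12* -0.012 and *Car13* 0.11, with the muscle mean *Car4* 0.017 and *Car13* 0.20, without WT replicates 3 and 4 *Car4* 0.013, *Car12* -0.016 and *Car13* 0.15, with the crystallins *Car8* 0.077, *Car9* -0.31 and *Car10* 0.15, and with array weights *Car12* -0.086 and *Car13* 0.035. With each retina left out *Car2* ranged from -0.09 to -0.05, *Car4* from -0.05 to 0.00, *Car8* from -0.06 to -0.01, *Car9* from -0.063 to 0.17, *Car10* from -0.073 to 0.018, *Car11* from -0.05 to -0.03, *Car12* from -0.067 to 0.11 and *Car13* from -0.13 to 0.10.

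Retinas with the same number deviated together for replicate 4 (correlation 0.41) but not for replicates 1 to 3 (-0.02, 0.01 and 0.05), and 1 of 4 correlated best with its own number, so the numbers were not taken to pair the retinas. With a replicate block *Car3* had -0.84 and *Car14* 0.33, both still past the threshold, and 113 genes passed against 137.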
